A study of Homo sapiens with 12 samples.

Results

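The RNAs recovered with V5-tagged dSpCas9 were described from the 1 list of peaks in which the V5 immunoprecipitation (IP) was compared with its size-matched input. Members were all 6605 peaks of that list, of 18128 peaks in the 4 lists of the series. dSpCas9 is Streptococcus pyogenes Cas9 without nuclease activity, here with no nuclear localization signal, and it was expressed from a transiently transfected plasmid with no guide RNA plasmid. HEK 293T, an established line of human embryonic kidney origin with the large T antigen of SV40, was exposed 2 times to UV at a dose of 400 mJ/cm2, and complexes were cut from the membrane at 115 kDa and above. The list combined 2 V5-dSpCas9 IP libraries with 2 size-matched input libraries of the same transfections, which hold the RNA of the same membrane region without IP. Of the other 8 libraries, 2 were V5 IPs of cells with the empty vector, and 6 were the matching FLAG libraries (2 IPs of 3xFLAG-dSpCas9, 2 of its inputs, 2 of the empty vector).

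eCLIP uses UV light to link a protein to the RNA it touches, recovers both with an antibody, and reads where reverse transcription stopped. A peak is a stretch of RNA with more reads in the IP than in the control. Cas9 normally holds a guide RNA, whose repeat forms a short hairpin that the protein grips next to a G and a U, and dSpCas9 that carries no guide RNA can meet the RNAs of the cell. In the cytoplasm these are mostly messenger RNA, ribosomal RNA and transfer RNA. Each peak had 1 enrichment (log2 of the geometric mean over both replicates of IP reads over input reads) and 1 −log10 p, so no value has an error between replicates and no test over samples was made. The plates were measured as a whole, so that more cells with a bound RNA and more binding per cell cannot be told apart. Transcript levels were not in the lists, so the identity of the cell line was not checked by its markers, and a gene without a peak may be one with few transcripts.

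The following sequences were chosen to show the most enriched loci of the tRNA, intron, rRNA and mRNA classes and of each mRNA region, and are not a ranking of the whole list. They are the central bases, at most 30, of the most enriched peak of its gene, 5′ to 3′ on the strand of the RNA as DNA letters of hg38, with each GU (written GT) in capitals, because GU is the dinucleotide of the guide RNA hairpin. The first 3 are tRNAs, the next 6 lie in introns or in ribosomal RNA, and the others are mRNAs of the 5′ UTR, the CDS and the 3′ UTR.
TRU-TCA1-1: ggcttcaaacctGTagctGTctagcgacag
TRR-TCG1-1: tgacttcggat
TRR-TCT1-1: aGTcccggcggaGTcGTaac
ENSG00000275016: tcttaatcccaggGTcGTggGTtcaagccc
ENSG00000269237: gacaGTctctgctcctggctg
ENSG00000254404: tcaggcgcca
PRKCA: tgaGTgGTagaattctcgcctc
TRIM52-AS1: cactcttcccggc
RNA45SN3: cgcatttccaccgcggcgGTgcgccg
CDIP1: tgacagaaGTgcga
SNRPD1: tgctccgcgcgctcttgacGTccggagccc
ATP5F1A: aGTaccgcctgcggaGTaac
CCNG1: agatcttcttaGTctaactcaGTtctttgg
ESRRA: tcaGTactgcagagcGTGTggatggagGTg
MACROH2A2: cccttcacactctcct
ZNF496: tGTGTggaagcGTcacccaGTctctgcctt
H2AC11: actaGTttGTggcagctcaaGTaaaatcga
The stretches of TRR-TCG1-1, ENSG00000254404, TRIM52-AS1 and MACROH2A2 held no GU, nor did the piece of 2 nt in ERCC1, which is not printed. A GU in capitals need not stand next to a stem. In the GU-stem search described below, the whole peaks of TRU-TCA1-1, SNRPD1, CCNG1 and H2AC11 held 1 each. Those of the other printed loci held none. The GU marked in CDIP1 is not the loop GU that the paper mutated, which lies further 3′. The SNRPD1 stretch begins before the annotated start of its gene, which is at base 21612314. On the plus strand lie TRR-TCG1-1 (chr15:89335101-89335111), TRR-TCT1-1 (chr1:93847642-93847661), ENSG00000275016 (chr15:95784677-95784706), ENSG00000269237 (chr19:21440634-21440654), PRKCA (chr17:66755856-66755877), TRIM52-AS1 (chr5:181265664-181265676), RNA45SN3 (chr21:8397608-8397633), SNRPD1 (chr18:21612301-21612330), CCNG1 (chr5:163439427-163439456), ESRRA (chr11:64315033-64315062), MACROH2A2 (chr10:70111824-70111839) and H2AC11 (chr6:27133473-27133502). On the minus strand lie TRU-TCA1-1 (chr19:45478627-45478656), ENSG00000254404 (chr11:62252199-62252208), CDIP1 (chr16:4538764-4538777), ATP5F1A (chr18:46098239-46098258) and ZNF496 (chr1:247299334-247299363).

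The peaks had a median log2 enrichment of 3.61, which is 12.2-fold, with an interquartile range of 3.29 to 4.06. The lowest was 3.00024, just above the authors' limit of 8-fold, and the highest 8.56. A log2 enrichment of at least 4 was reached by 1831 peaks (27.7%), of at least 5 by 296 (4.48%), and of at least 7 by 24. Peaks were short, with a median length of 74 nt and a range of 1 to 359 nt, and neighbouring pieces were listed separately. Joining pieces that touched on the same strand left 5631 intervals that covered 492222 bases, and 1 interval was made of 8 pieces. The −log10 p reached its ceiling of 400 in 273 peaks. These ceiling peaks lay in 60 genes, 44 of them in EEF2, 25 in RPL8, 19 in TRIM28 and 16 in H2AC11. Enrichment and −log10 p ran together only loosely over the 6605 peaks (Spearman's rho 0.285, a description in which both values share the same reads).

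mRNA made up most of the list by number and other RNAs made up its top. Exons of protein-coding genes held 6425 peaks, 97.3% of the list (95% Wilson interval 96.9 to 97.6, which like all such intervals here covers counting error only), in 2622 genes. The other 180 peaks were spread over exons of long noncoding RNAs (38), tRNA genes (38), introns of protein-coding genes (36), pseudogenes (30), introns of noncoding genes (13), ribosomal RNA genes (6), misc RNAs (5), snRNAs (4), miRNA hairpins (4) and 6 others. Their median log2 enrichment was 4.47 against 3.60 for mRNA exons. The 10 most enriched peaks held 6 in tRNA genes, 4 in introns of protein-coding genes and no mRNA exon. They were pieces of few loci. The 6 were all pieces of TRU-TCA1-1. The 4 were a piece of 2 nt in ERCC1 beside that gene, and 3 pieces of 1 interval in ENSG00000269237. Of the first 20 peaks mRNA exons held 2, and of the first 50 they held 21. No peak was assigned to a snoRNA under the rule that puts exons of protein-coding genes first. With small RNA genes put first, 97.15% of peaks were on mRNA exons, and snoRNA peaks were not counted under that rule.

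**Figure D1:**
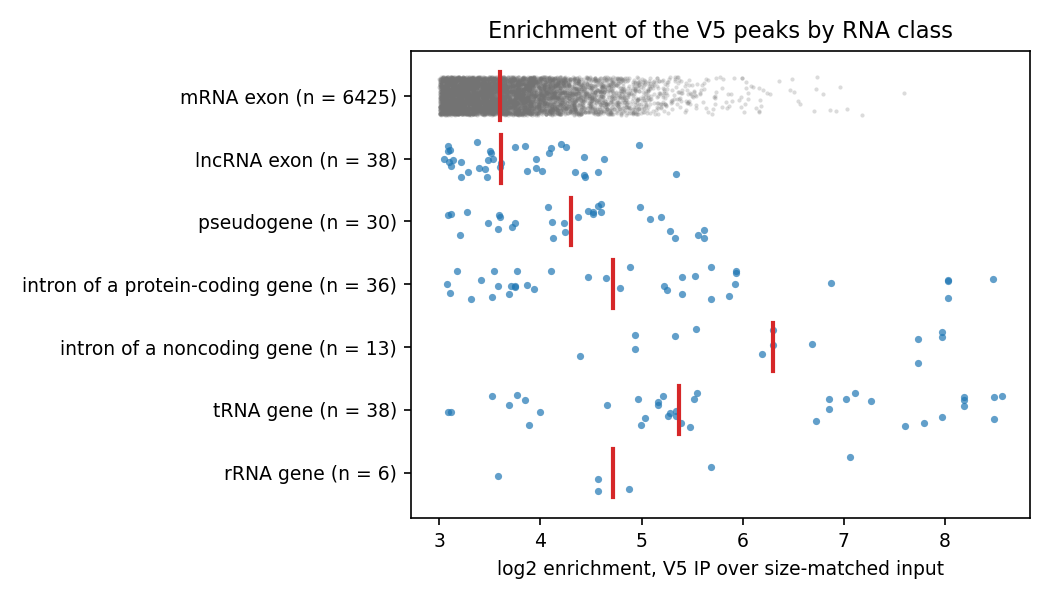
log2 enrichment of V5 IP over size-matched input (x axis) for each peak (points) in the 7 largest RNA classes (rows, spread vertically at random), with the class median as a vertical line. The tRNA gene points reach 8.56, above the highest mRNA point at 7.60, although their class has 38 peaks against 6425.

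Transfer RNAs led the list. tRNAs carry amino acids to the ribosome, and the most enriched of all was the selenocysteine tRNA TRU-TCA1-1, which reads the UGA codon in selenoprotein mRNAs. Its 6 peaks had log2 enrichments of 8.19 to 8.56, the last being 378-fold. One interval (chr19:45478604-45478688, minus strand) ran from just before the gene to base 84 of its 87 bases, and a second, short one from base 87 to 3 bases past its end. The outer 2 nt of the short one are listed under the surrounding intron of ERCC1, a DNA repair gene, at 8.48.

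Of 429 nuclear tRNA genes in the RefSeq table (assembly GRCh38.p14), 14 had a peak, 7 of them among the 26 for arginine. TRR-TCG1-1 reached 7.97, TRR-TCT1-1 7.27 and the cysteine tRNA TRC-GCA3-1 6.86. The other arginine genes TRR-TCT4-1, TRR-ACG2-1, TRR-CCT1-1, TRR-CCT4-1 and TRR-TCG3-1 lay between 3.99 and 5.52, and the lysine tRNA TRK-CTT1-2 was at 5.55. The lowest was TRK-CTT1-1 at 3.09. In several genes the peaks lay in the 3′ part. In TRR-TCG1-1 it ran from base 27 of 73 to 4 bases past the gene's end, in TRR-TCT1-1 from base 46 of 85 to 4 bases past it, and in TRC-GCA3-1 from base 36 of 72 to 4 bases past it. Other genes differed. The TRK-CTT1-2 interval began 2 bases before the gene and ended 10 bases before its end, that of TRK-CTT1-1 covered the 5′ end up to base 9, and the more enriched of the 2 intervals of TRR-ACG2-1 covered bases 23 to 40 of 73. tRNA genes have near-identical copies, so which copy the reads came from is uncertain. All 38 tRNA peaks overlapped a peak of the FLAG IP over its input, whose values were higher than those of V5 in 11 of the 14 genes (9.52 for TRU-TCA1-1, 8.69 for TRR-TCG1-1). Against the empty vector V5 IP, 6 of the 14 genes had a peak, with log2 values of 3.06 to 3.39. Against the empty vector FLAG IP none of the 38 peaks had one. Over the input the same loci thus stood up to 8.56, and over the empty vector IPs they stood at 3.39 or lower, or under the limit of the lists.

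The intronic peaks often shared runs of sequence with abundant noncoding RNAs. After joining pieces, 25 intervals lay in introns of protein-coding genes, and 10 of them shared an identical run of at least 20 nt with such an RNA. The 45S ribosomal RNA precursor accounted for 6 of these, 5S ribosomal RNA for 2, the signal recognition particle RNA 7SL for 1 and a tRNA for 1. Both strands of each RNA were searched and the strand was not kept, so a run may match the RNA or its complement. In PDE3A an interval of 39 nt was identical to 45S over its whole length, at a log2 enrichment of 5.69. In RYR2, a calcium channel gene of muscle, the run was 75 of 146 nt at 5.40, in AAMDC 66 of 91 nt at 5.40, and in HFM1 72 of 109 nt at 4.65. The PRKCA interval at 6.87 shared 20 nt with a glycine tRNA. In the noncoding gene ENSG00000275016 an interval at 7.98 shared 24 of its 52 nt with the lysine tRNA TRK-CTT1-1. Shorter runs of 15 to 17 nt with tRNA genes were found in ENSG00000269237 (8.03), ENSG00000254404 (7.74), TRIM52-AS1 (6.69), ENSG00000269535 (6.30) and SYCP2L (5.94). Reads from a multicopy RNA cannot be assigned to 1 copy, so that the gene names of these loci say where the reads were placed. With the empty vector V5 IP as control, 6 of the 36 peaks in introns of protein-coding genes were matched, and 0 of the 13 in introns of noncoding genes. ENSG00000269237 stood at 3.23 there and PRKCA at 3.61. The other loci named in this paragraph had no such match, so they may lie under the limit of that list. With the empty vector FLAG IP as control, ENSG00000254404 was at 3.24 and ENSG00000269535 at 3.62.

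The ribosomal RNA genes themselves held 6 peaks, in the 45S copies RNA45SN3 (highest 7.06) and RNA45SN2 (highest 4.57) of chromosome 21, and all of them also overlapped a FLAG peak over input, none a V5 peak over the empty vector. RN7SL2, a 7SL gene, reached 5.42, and RN7SKP71, a copy of 7SK RNA, 4.12. The snRNAs were represented by RNVU1-1, a U1 variant, at 4.68 and by RNU6-4P, a U6 copy, at 3.24. The miRNA hairpins MIR1229 and MIR92A1 reached 4.58 and 3.90. The 1 mitochondrial peak lay on the proline tRNA (TRNP) at 3.53. Among the pseudogenes, RPL8P3 (5.33) and RPL14P1 (5.29) are copies of ribosomal protein genes that also had peaks, so their reads are likewise uncertain, and ENSG00000283041 was at 5.62. The lncRNA class was led by LIMD1-AS1 (5.34), whose only piece of 3 nt touches TRR-ACG2-1, and by ENSG00000250899 (4.98) and LINC02693 (4.63). The unclassified transcript ENSG00000278948 had 3 peaks up to 4.24.

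On mRNA, 6354 peaks had their midpoint on the canonical transcript of their gene. The CDS held 3327 of them (52.4%, interval 51.1 to 53.6), the 3′ UTR 2446 (38.5%, 37.3 to 39.7) and the 5′ UTR 581 (9.14%, 8.46 to 9.88). The same mRNAs, each weighted by its number of peaks, had 48.9% of their length in the CDS, 46.0% in the 3′ UTR and 5.09% in the 5′ UTR. The share of peaks was therefore 1.80 times the share of length in the 5′ UTR, 1.07 times in the CDS and 0.837 times in the 3′ UTR. Expression along these mRNAs was not taken into account. Where 1 peak per gene was kept, the ratio for the CDS fell below 1, to 0.981, and those of the 5′ UTR and 3′ UTR were 2.15 and 0.893.

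**Figure D2:**
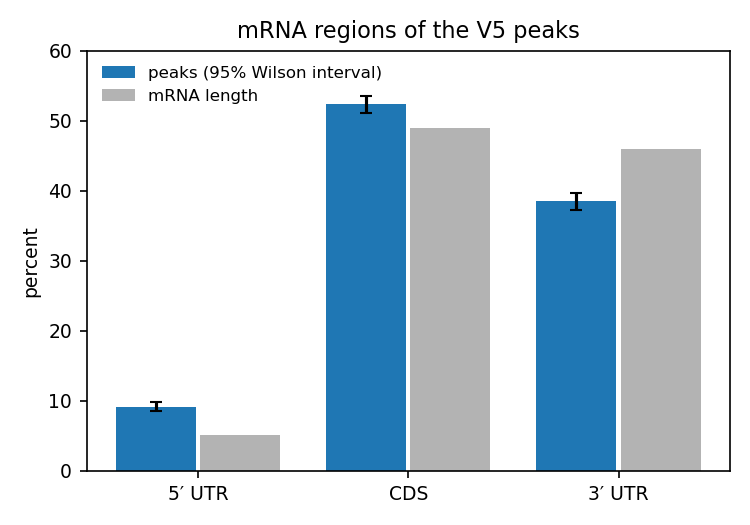
Percent of mRNA peaks by midpoint (blue bars, 95% Wilson intervals) and percent of the length of the same mRNAs (grey bars) in the 5′ UTR, CDS and 3′ UTR. The 5′ UTR bar of the peaks is at 9.14% beside 5.09% of length, and the 3′ UTR bar at 38.5% beside 46.0%.

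Enrichment differed little between regions. The median was 3.57 in the 5′ UTR, 3.56 in the CDS and 3.66 in the 3′ UTR, with interquartile ranges of 3.26 to 4.05, 3.26 to 3.98 and 3.33 to 4.11. A log2 enrichment of at least 5 was found in 4.82% of 5′ UTR peaks, 2.98% of CDS peaks and 4.01% of 3′ UTR peaks. From the lowest to the highest quartile of mRNA enrichments the 3′ UTR share went from 33.3% (31.0 to 35.7) to 43.5% (41.1 to 45.9) and the CDS share from 56.6% (54.1 to 59.0) to 47.1% (44.7 to 49.5), while the 5′ UTR share stayed between 8.30% and 10.1%. Above the quartiles the 5′ UTR share was higher. It was 12.4% (8.75 to 17.4) of the 225 peaks at log2 of at least 5. At least 6 was reached by 32 peaks, of which 10 (31.25%, 18.0 to 48.6), in 5 genes, lay in the 5′ UTR. Of the 245 placed mRNA peaks at the ceiling of the p-value, 193 lay in the CDS.

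Positions along the mRNA were uneven. With an even spread along each mRNA as 1, midpoints were at 2.91 in the window of 50 to 100 nt after the transcript start (338 peaks) and at 0.874 and 0.857 in the windows from 400 to 500 nt. At the start codon the value was 2.22 for the window from 100 to 50 nt before it and 2.18 for the first 50 nt after it, and it was at 1.03 in the window starting 250 nt after it. Just before the stop codon it was 0.731 (85 peaks), and in the last 50 nt of the transcript 0.0172 (2 peaks). The midpoint of a peak inside a transcript cannot reach its end, and the even spread did not allow for that. With a median peak length of 74 nt, the value for the last 50 nt does not measure how much was bound there. With each region cut into 5 equal parts, the first part of the CDS held 27.7% of CDS peaks and each of the others 17.5% to 18.9%. In the 3′ UTR the share went down from 28.0% in the first part to 11.2% in the last. Peaks that covered the start codon numbered 359, in as many genes, and those that covered the stop codon 161. An edge exactly at a splice junction was found in 744 CDS peaks (22.4%), which had a median length of 34 nt against 72 nt for the others.

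**Figure D3:**
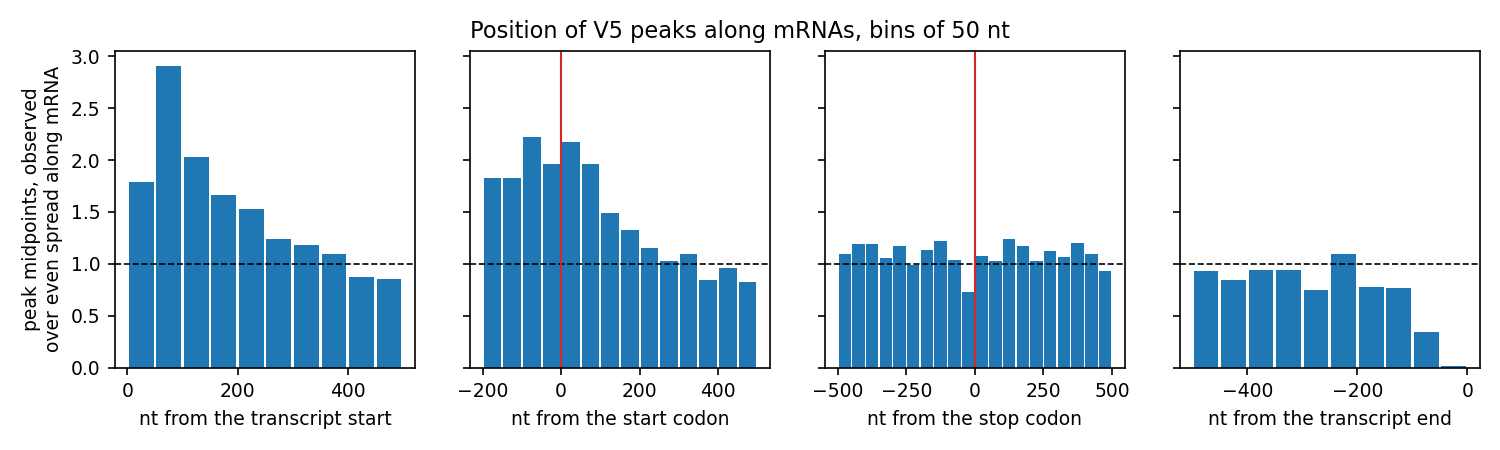
Number of peak midpoints divided by the number that an even spread along the same mRNAs gives (y axis, dashed line at 1), in bins of 50 nt from the transcript start, start codon, stop codon and transcript end (x axes; lines mark the codons). The bars reach 2.91 close to the transcript start and fall to 0.0172 in the last 50 nt. Midpoints of peaks inside an mRNA cannot reach its ends, which the even spread does not allow for.

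Genes differed in how many peaks they carried. Of the 2622 genes with peaks on mRNA exons, 1311 (50%) had 1 peak, 334 had at least 5 and 61 at least 10. The 334 genes held 39.8% of the mRNA peaks. Placed peaks of 964 genes lay only in the CDS, of 801 only in the 3′ UTR and of 205 only in the 5′ UTR, and 90 genes had peaks in all 3 regions. EEF2, the elongation factor that moves the ribosome along the mRNA, had the most, 47 peaks in 22 intervals, all in the CDS and at log2 enrichments of 3.17 to 4.32. TRIM28, a corepressor that acts with zinc finger proteins, had 33 peaks in 15 intervals with a maximum of 5.15, and USP22, a deubiquitinase of the SAGA complex, 24 in 15 with a maximum of 5.03. SESN2, a stress-induced regulator of mTORC1, had 19 peaks in 15 intervals (maximum 4.55) and the ribosomal protein gene RPL8 29 in 14 (5.55). AEN, a nuclease induced by DNA damage, was covered over the most bases, 1512 or 49.2% of its mRNA, followed by USP22 with 1312 and EEF2 with 1117.

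The most enriched mRNA was that of MACROH2A2, a histone variant of repressed chromatin. Its 3 peaks touched each other in the 3′ UTR (chr10:70111755-70111839) with log2 enrichments of 6.74, 6.86 and 7.60, and the overlapping FLAG peak over input was lower, at 5.77. CDIP1, a proapoptotic membrane protein, followed at 7.18. Its peaks stepped down from the transcript start, with 7.18, 7.03, 6.57 and 6.49 in 4 touching pieces at the start of the 5′ UTR (chr16:4538702-4538777), 5.73 in a further 5′ UTR piece and 4.48 and 4.45 in the CDS. The FLAG value at the first of them was 8.23, the V5 value over the empty vector 7.20, and CDIP1 had no peak in its 3′ UTR. ZNF496, a zinc finger gene, reached 6.96 in the 3′ UTR with FLAG at 5.74.

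CCNG1, the gene of cyclin G1, which is induced by DNA damage, led the CDS. Its 4 peaks were at 6.93, 6.36, 3.52 and 3.12, and only the former 2 overlapped FLAG peaks, at 4.71. Next in the CDS came H2AC11, a replication histone gene (6.20 for its highest CDS peak), and ESRRA, the nuclear receptor ERRα, whose 3 touching CDS peaks were at 6.18, 6.10 and 5.73. H2AC11 was marked over most of its mRNA. Its 16 peaks, all at the ceiling of the p-value, covered 69.4% of the 493 nt and lay between 4.61 and 6.73, the last across the stop codon.

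SNRPD1, a core protein of spliceosomal snRNPs, was at 6.80 in a piece across the annotated start of its gene. It was at 4.76 in the next piece, which crossed the start codon. ATP5F1A, a subunit of the mitochondrial ATP synthase, had 2 pieces at 6.71 and 6.51 in its 5′ UTR and 14 CDS peaks between 3.01 and 5.30. For both genes the FLAG values at these places were lower, 4.61 and 4.74. MFHAS1 (6.55), EFL1 (6.27, a GTPase of ribosome maturation, 5′ UTR) and TNPO2 (6.24, a nuclear import receptor, 3′ UTR) completed the first 10 mRNAs.

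**Figure D4:**
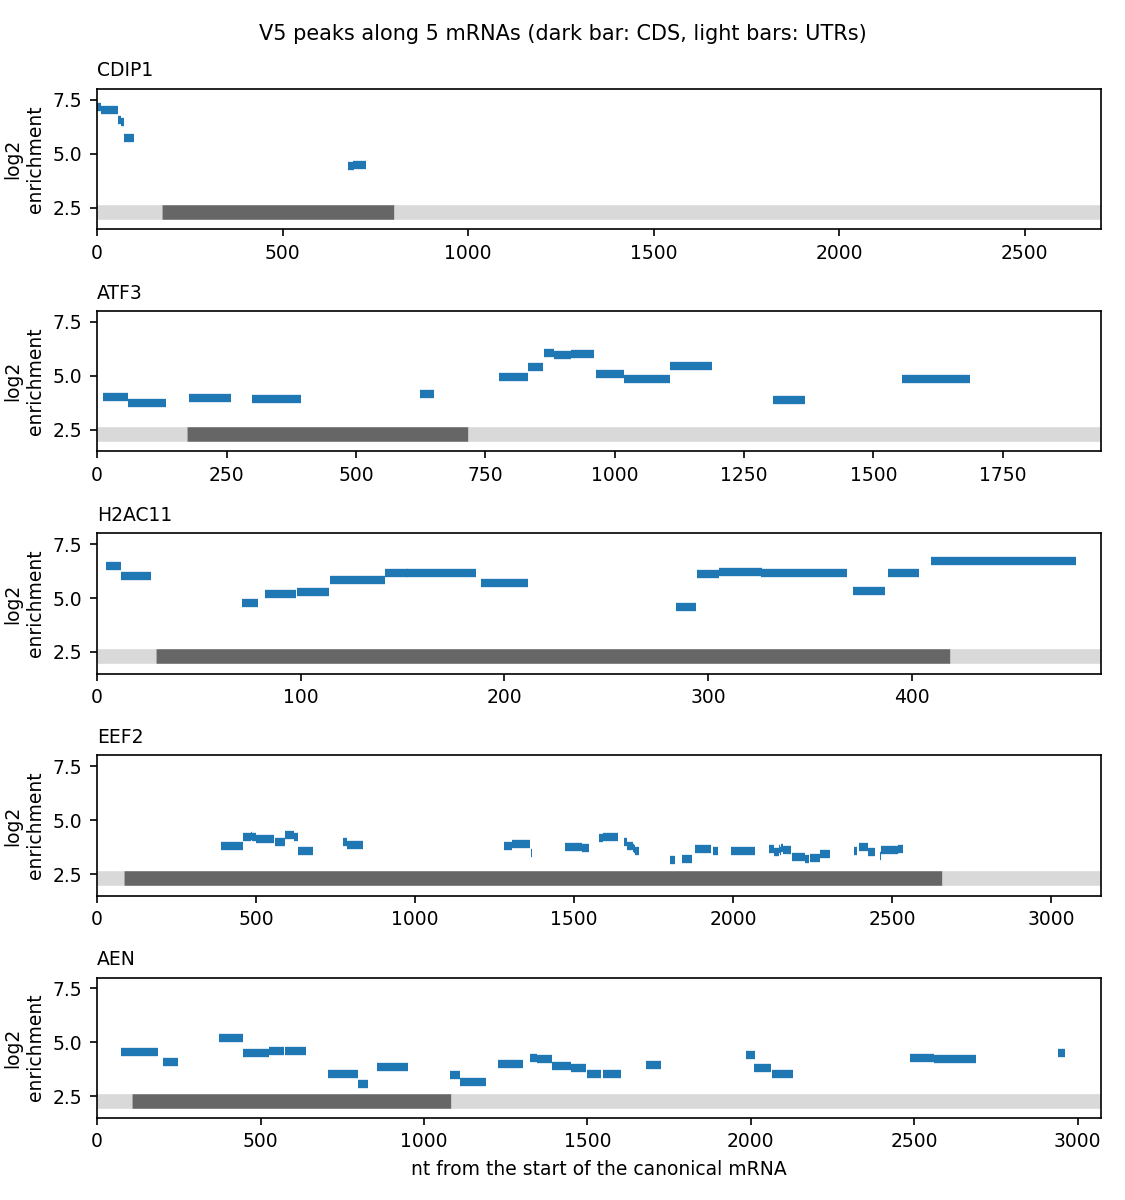
log2 enrichment of each V5 peak (horizontal bars, drawn to length) against its position from the start of the canonical mRNA for CDIP1, ATF3, H2AC11, EEF2 and AEN, with the CDS as a dark bar and UTRs as light bars. CDIP1 is highest at its 5′ end (7.18), ATF3 rises to 6.06 in the 3′ UTR, and the 47 EEF2 peaks stay between 3.17 and 4.32 in the CDS.

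The lists of genes below were chosen with results of these data known. Of all annotated protein-coding symbols, 13.1% had a peak on an mRNA exon (2622 of 20020), and the median of their highest log2 enrichments was 3.79. That share counts every annotated gene, also those with few or no transcripts in these cells. For its gene ontology background the paper kept only genes above a level of expression. A list of widely expressed genes can lie above the share for that reason, which was not tested. Among the DNA damage genes, after CDIP1 came ATF3, a stress-induced transcription factor, at 6.06, and GDF15, a stress-induced cytokine, at 5.80. ATF3 had 15 peaks that covered 47.7% of its mRNA, and its values went from 3.76 and 4.03 in the 5′ UTR over 3.93 to 4.17 in the CDS to 6.06 shortly after the stop codon. CDKN1A, the CDK inhibitor p21, had 10 peaks with a maximum of 5.52 in the 3′ UTR, and those of its CDS lay at 3.03 to 4.54. MDM2, a ubiquitin ligase, was at 5.19 with 17 peaks, and PMAIP1, a BH3-only protein, at 5.33 with 5; both were chosen after their values were seen. ACTB and GAPDH, common control genes with abundant mRNA, had no peak.

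Of 23 genes of the unfolded protein and integrated stress response, 6 had a peak (median 4.22), led by TRIB3 (5.45), HERPUD1 (4.70) and SESN2 (4.55). The transcription factors ATF4 and DDIT3 were not among them, while the transcription factor XBP1 was, at 3.67.

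The genes of protein synthesis were described as 3 sets. Of 81 cytoplasmic ribosomal protein genes 45 had a peak (55.6%), and 236 of 277 placed peaks (85.2%) lay in the CDS, which made up 62.3% of the length of these mRNAs. Their median maximum of 3.73 was below that of all genes, and RPL15 (5.79), RPL8 (5.55) and RPLP0 (5.54) led. Of 69 genes with the symbols of initiation and elongation factors 23 had a peak, led by EIF4G2 (4.83), EEF1G (4.77) and EEF2. Taken by symbol, the 23 include EIF4EBP1, EIF4EBP2 and EIF2AK1, which are not themselves such factors. In the 23 genes the CDS held 99 of 119 peaks (83.2%) and 69.9% of the length of the mRNAs, and EEF2 alone supplied 47 of the 99. Of 35 aminoacyl-tRNA synthetases 13 had a peak, led by MARS1 (5.18, 12 CDS peaks), SARS1 (4.04) and LARS1 (3.84, in the 5′ UTR), and the CDS held 85.7% of their peaks and 85.9% of their length. Several of these genes have processed copies, which makes the counts of their reads uncertain.

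The mitochondrial ribosomal proteins gave 19 of 78 genes, led by MRPL10 (4.88), MRPS5 (4.68) and MRPS11 (4.35). Of 82 heat shock proteins and chaperones 27 had a peak, led by CCT2 (4.88), DNAJC5 (4.76) and DNAJB2 (4.37). Of 97 histone genes 31 did, with H4C2 (5.23) next after MACROH2A2 and H2AC11. Histone genes of a cluster are near-identical to each other, so their assignment is uncertain. The proteasome gave 12 of 40 (PSMB5 5.03, PSMB4 4.19, PSMD2 4.13), DEAD and DEAH box helicases 15 of 54 (DHX33 5.29, DHX57 5.17, DDX19B 5.13) and splicing factors with hnRNPs 17 of 64 (HNRNPA1 4.54, HNRNPAB 4.46, SF3B3 4.32). In the latter 11 of 41 peaks lay in the 5′ UTR, which made up 3.81% of the length of their mRNAs. Over all mRNA peaks the 5′ UTR held 9.14% of peaks and 5.09% of length. It held 17.9% of peaks and 3.06% of length in the helicases, and 0% and 4.51% in the mitochondrial ribosomal proteins.

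The solute carriers were close to the share of all genes and the ZNF genes and tubulins below it. The solute carriers had 52 of 385 genes (13.5%), led by SLC66A2 (5.58), SLC25A11 (5.36) and SLC39A9 (5.11). SLCO5A1, at 5.25, was not counted, since its only peak lay in an intron and shared a run of sequence with 45S RNA. The ZNF genes had 41 of 515 (7.96%), led by ZNF496, ZNF672 (5.26) and ZNF543 (4.67). The tubulin symbols gave 2 of 28, TUBB2B (3.17) and TUBGCP4 (3.16), the latter a gamma-tubulin complex protein.

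The FLAG libraries were made from other cells and with another antibody. Of the 6605 peaks, 3565 (54.0%, 52.8 to 55.2) overlapped a FLAG peak over its size-matched input on the same strand by at least 1 nt. The share went up with enrichment, from 34.1% (31.8 to 36.5) in the lowest quartile of mRNA peaks to 44.8%, 58.6% and 76.0% (73.9 to 78.0) in the highest. It was 58.0% in the 3′ UTR, 56.8% in the 5′ UTR and 49.6% in the CDS, and 100% for tRNA genes. Overlapping peaks had a median log2 enrichment of 3.82 against 3.42 for the others, at the same median length of 74 nt. Over the 3565 peaks, V5 and FLAG enrichment were related with Pearson's r of 0.646 and Spearman's rho of 0.472, and over the 3399 on mRNA with 0.534 and 0.441, a description across peaks that share genes and neighbouring pieces. V5 minus FLAG had a median of 0.0126 with an SD of 0.652. The FLAG value was the highest of all FLAG peaks that overlapped, set against each single V5 peak. Only peaks above the limit of 8-fold in both lists enter, so neither the difference nor the correlations cover loci under it.

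The list of V5 IP over empty vector V5 IP uses the same V5 IP libraries and is therefore not a repeat. A peak of it overlapped 2381 of the 6605 peaks (36.0%, 34.9 to 37.2), 39.8% of those in the 5′ UTR, 39.7% in the CDS and 31.3% in the 3′ UTR. Among mRNA peaks this share was 21.7% in the lowest quartile of enrichment and 58.3% in the highest. Of mRNA exon peaks 36.5% overlapped, and of the others 19.4%. All 3 other lists had an overlapping peak at 884 of the 6605 peaks (13.4%), whose median was 4.34, and none of them at 2390 (36.2%), whose median was 3.41.

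Peaks were richer in G and C than the sequence beside them. The mean G + C content was 60.5% in the peaks and 55.7% in the 50 nt on either side, a difference of 4.74 percentage points (SD 9.12 over 6605 peaks), and it was higher in the peak for 4711 of them. The difference was 6.01 points in the 3′ UTR, 4.12 in the CDS and 2.31 in the 5′ UTR, where peaks themselves reached 71.1%. Flanks read along the spliced mRNA gave 4.93 points in the 5′ UTR and 3.00 in the CDS. The dinucleotides UU, UA and AA were rarer in peaks, at 0.676, 0.644 and 0.618 times their flank density, and CG and GC more frequent, at 1.25 and 1.23 times.

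**Figure D5:**
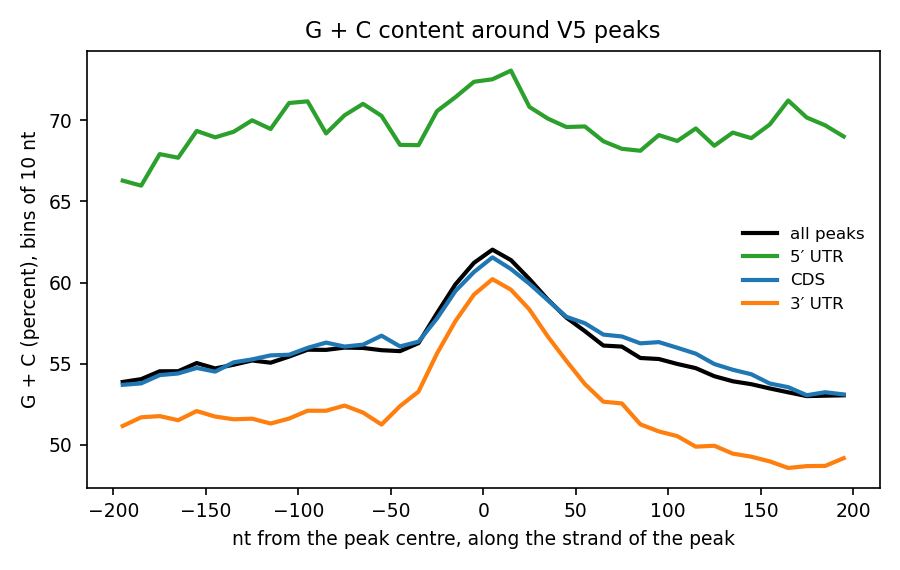
Mean G + C content (percent, bins of 10 nt) by distance from the peak centre along its strand, for all peaks and by mRNA region. The line of all peaks rises from 55.8% at 50 to 40 nt before the centre to 62.0% just after it, and the 5′ UTR line lies above the others throughout.

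The GU dinucleotide occurred 6.39 times per 100 nt of peaks and 5.64 times per 100 nt of flanks, a ratio of 1.13, which lay at 1.19 in the 3′ UTR, 1.09 in the CDS and 1.08 in the 5′ UTR. It was not the dinucleotide with the highest ratio, which was CG. The motifs were searched on the strand of the peak alone, and GUUUU and UUUUU can overlap. The windows beside peaks were genome sequence, so they can hold intron bases, and windows along the spliced mRNA were not searched. GUUUU was in 3.92% of peaks and in 9.67% and 9.11% of the windows of equal length before and after them, and UUUUU in 2.42% against 11.4% and 9.05%. GAGCU was in 12.8% against 10.2% and 10.7%, and GUUCG, the T-arm letters of tRNAs, in 3.00% against 2.00% and 2.39%. These differences did not hold in every region, since GAGCU in the 5′ UTR was in 12.6% of peaks and 14.5% of the windows after them, and GUUCG in the 3′ UTR in 1.35% and 1.76%. GGGGG was in 10.4% of peaks, between the share in the windows before them (9.48%) and that in the windows after them. In the CDS, UUUUU was in 1.23% of peaks, 10.6% of the windows before and 5.83% of the windows after them.

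A GU next to a stem, taken as a U paired at under 0.7 probability with the next 5 bases each paired at over 0.5, was found in 42.2% of the 6458 peaks of at least 7 nt (41.0 to 43.4). In the neighbouring windows of equal length the share was 29.1% before and 29.9% after the peak. These windows too were genome sequence and can hold intron bases. By region it was 50.0% in the 3′ UTR (34.6% and 35.1% beside it), 47.5% in the 5′ UTR (30.4% and 32.3%) and 35.9% in the CDS (24.8% and 26.1%). The share did not follow enrichment, with 42.0% in the lowest quartile and 41.1% in the highest, and in tRNA genes it was 6 of 32 peaks in the peak and 6 and 5 beside it. Longer peaks have more room for a GU-stem. Median lengths were 82 nt in the 3′ UTR, 90 nt in the 5′ UTR and 66 nt in the CDS. They were 77 nt in the lowest quartile, 70 nt in the highest and 17.5 nt in tRNA genes. The part of length in these shares was not tested. Mean pairing probability was 0.572 in peaks, and 0.535 and 0.539 beside them, so that the G + C content, the pairing and the GU-stem moved together, and their parts in one another were not tested.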

How the data were processed

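Reads of V5 and FLAG eCLIP libraries from HEK 293T cells were processed by the authors with cutadapt 1.14, UMI-tools 1.0.0, STAR 2.4.0i, SAMtools 1.6 and their eCLIP pipeline on hg38. Replicates were merged by the Irreproducible Discovery Rate. The deposited log2 values are the enrichment of IP over control reads, and the deposited −log10 values are its p-value, both 1 per peak for 2 replicates. Depth is unknown. Replicates were biological replicate plates of cells.

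Peaks were assigned on the same strand by GENCODE 44 (exons of protein-coding genes, then other exons, tRNA and 45S genes of RefSeq, then introns). tRNA and 45S genes had no strand in that table. Regions came from midpoints on canonical transcripts. The 45S class, identical runs (at least 20 nt) and GU-stem search (ViennaRNA 2.7.2, window 70, 50 nt padding) were chosen after seeing the data. Placement was tested on simulated peaks. Named genes were the 10 most enriched, the 5 with most intervals, the 3 with most covered bases, the 3 leading each region, class and list, and a few genes fixed by name, of which 1, with the counts of the list that holds it, is not reported here. Members and lists were chosen with earlier results of these data known. Alternatives covered thresholds, merging, overlap, region rule and flanks. The authors' deposited comparisons against empty vector served for overlaps. Python 3 scripts used pandas, scipy and pysam.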

Additional observations from a re-analysis of the deposited data

How the results depend on the processing

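No paired analysis was possible because the lists hold 1 value per peak for both replicates, and no replicate could be left out for the same reason. Of 58 alternatives for 13 results, 15 stayed within 1.5 times a count or within the 95% interval of the main value. A log2 enrichment of at least 4 left 1831 peaks, 1039 genes, 93.9% on mRNA exons, 47.3% CDS and 43.1% 3′ UTR, length ratios of 1.01 (CDS) and 0.898 (3′ UTR), 76.4% with a FLAG and 56.4% with a V5 empty vector peak, and a G + C difference of 4.31. A −log10 p of at least 10 left 2899 peaks, 1184 genes, 51.0% CDS, 37.3% 3′ UTR and 11.7% 5′ UTR, with length ratios of 1.01 (CDS) and 2.13 (5′ UTR). With touching peaks merged, 97.8% were on mRNA exons, 50.8% had a FLAG and 32.9% a V5 empty vector peak. With only the most enriched peak of each gene, shares were 46.8% CDS, 42.0% 3′ UTR and 11.1% 5′ UTR, length ratios 0.981, 0.893 and 2.15 in this order, and the GU ratio 1.18. Counting every region overlapped gave 56.3% CDS and 12.6% 5′ UTR, and covered bases 46.2% CDS, 43.1% 3′ UTR and 10.7% 5′ UTR. An overlap of at least 50% gave 48.8% (FLAG) and 34.9% (V5 empty vector). Flanks of 100 nt gave 5.07 points of G + C and a GU ratio of 1.15. Added after seeing the data, genes of under 5 peaks gave length ratios of 1.02 (CDS), 0.864 (3′ UTR) and 2.09 (5′ UTR), spliced flanks 4.42 and 1.17, and flanks without other peaks 5.65 and 1.16. The cause of these shifts was not tested. The CDS ratio went below 1 with the most enriched peak of each gene. Those of the 5′ UTR and 3′ UTR kept their direction under the 4 alternatives run for them, and G + C and GU under the 5 run for each.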
